A study of Mus musculus with 23 samples.

Results

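The comparison set mouse embryonic stem (ES) cells that had grown for 96 h without doxycycline beside the same cells at 0 h. The cells carry a single inducible Argonaute, and reads in exons were set beside reads in introns for every gene. It used 4 of the 23 samples of the series, 2 libraries at 96 h and 2 at 0 h, chosen by their labelled time alone. By its label the line lacks Blm and all 4 mammalian Argonaute genes (Blm-/-;Ago1,2,3,4-/-), carries CreERT2, and expresses a tagged Ago2 from a doxycycline-dependent transgene (TT-FHAgo2). All groups share these alleles, the line was clonal, and it was kept on gelatin in serum with LIF at 0.1 µg/mL doxycycline. The 96 h cells were first held for 48 h at 2.5 µg/mL, a dose described in the labels as restoring Ago2 to about its wild-type amount, and were then moved to medium without the drug. The 0 h cells had the same 48 h at 2.5 µg/mL and were collected at its end. Loss of Ago2, absence of the drug itself and 96 h of further culture therefore cannot be told apart here. A separate set of cells from the same line was grown without doxycycline for 96 h. It was then grown for 48 h with 2.5 µg/mL, or collected without that second exposure (2 libraries each). The first of these groups was thus 48 h longer in culture, and the groups also differ in the presence of the drug itself. Polyadenylated RNA was sequenced from strand-specific libraries.

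Argonaute proteins hold a microRNA of about the length of the sequences printed here and pair its seed, bases 2 to 8, with sites in the 3' untranslated region (3' UTR) of messenger RNAs. TNRC6 proteins bound to Argonaute then bring in the CCR4-NOT deadenylases, and the mRNA is repressed in translation and decays faster. Mouse ES cells are known for the miR-290 and miR-302 clusters, whose main members share the seed AAGUGCU. Reads in introns come from RNA that has not been spliced, and their level follows transcription, with a part from splicing and from the decay of introns. A change in exon reads that exceeds the change in intron reads is the usual sign of altered stability of the spliced mRNA.

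The mature microRNAs below were read from RefSeq on GRCm38.p6, with the seed in capitals. They are shown because the matches counted in 3' UTRs are the reverse complements of these seeds. The first 3 share one seed, the seed of miR-17-5p is shifted against it by 1 base, and the last, a microRNA known from neural tissue, was added for comparison.
mmu-miR-291a-3p: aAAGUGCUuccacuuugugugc
mmu-miR-294-3p: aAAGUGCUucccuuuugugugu
mmu-miR-302b-3p: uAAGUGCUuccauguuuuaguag
mmu-miR-17-5p: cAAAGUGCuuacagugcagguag
mmu-miR-9-5p: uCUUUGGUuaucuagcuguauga

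The match to the AAGUGCU seed is AGCACTT, searched on the transcribed strand of the longest annotated 3' UTR (GENCODE M21) of each gene. It is in capitals in the sites below, given on GRCm38 with the strand of the gene. They come from genes described below whose exon reads rose beyond their intron reads, in part with falling introns, and show where the seed can pair. A T after AGCACTT makes the site hold the match to miR-17-5p, GCACTTT, as well.
9530068E07Rik, chr11:52408120-52408148, plus strand: ccagggactgtgtgtcAGCACTTgatttt
Lats2, chr14:57691081-57691109, minus strand: agtacagtatggaaagAGCACTTattttg
Tbc1d8b, chrX:139752891-139752919, plus strand: atatatggacgctgatAGCACTTtcaaaa
Gnb5, chr9:75345274-75345302, plus strand: tctagtctgtcttcagAGCACTTtaaact
Zfp367, chr13:64134996-64135024, minus strand: agcagttctcacaggaAGCACTTtgtgaa
Uchl1, chr5:66687086-66687114, plus strand: cagccacaccaggctgAGCACTTtccctc
Polq, chr16:37094860-37094888, plus strand: cttgaaaaatgcacttAGCACTTtgggtt
Cdkn1a, chr17:29099812-29099840, plus strand: atcctcagacctgaatAGCACTTtggaaa

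The libraries held 48667470 and 47041225 exon reads at 96 h, against 50114323 and 44295410 at 0 h, and 6277448 and 6012671 intron reads at 96 h, against 6669867 and 6152575 at 0 h. The 2 libraries of a group differed per gene by a median of 0.095 (log2) in exons at 96 h and 0.083 at 0 h. Values below are normalised reads, library 1 and then library 2 of each group. Ago1 had no read in any of the 4 libraries. Ago2 had 10771 and 10817 exon reads at 96 h, against 11759 and 12167 at 0 h, and reads over the whole gene do not separate transcripts of the transgene from those of the disrupted gene, so that this count does not show the size of the loss. Ago3 had 2245 and 2118 exon reads at 96 h, against 4406 and 4661 at 0 h, and Ago4 had 24.3 and 29.2 at 96 h, against 27.1 and 25.2 at 0 h. Blm had 4696 and 4854 exon reads at 96 h, against 6062 and 5927 at 0 h. The counts over the whole genes of Ago3 and Blm are thus well above 0 in a line labelled null for both, and they do not check those labels. All 8 ES-cell markers were detected, 3 higher and 5 lower at 96 h, with summed exon reads of 372373 and 371621 at 96 h, against 383490 and 390175 at 0 h. The 4 trophoblast markers summed to 2507 and 2356 at 96 h, against 913 and 907 at 0 h, and nearly all of it was Krt8, a keratin, at 2468 and 2332 at 96 h, against 877 and 874 at 0 h. Cdx2, which defines the lineage, had 1.94 and 2.01 reads at 96 h, against 5.80 and 4.38 at 0 h. The 5 endoderm markers summed to 318 and 303 at 96 h, against 149 and 139 at 0 h, and most of it was Gata4, at 276 and 269 at 96 h, against 122 and 106 at 0 h. The 4 mesoderm markers summed to 198 and 241 at 96 h, against 277 and 284 at 0 h, the 6 fibroblast markers to 296 and 352 at 96 h, against 234 and 244 at 0 h, and the 4 neural markers to 9397 and 8620 at 96 h, against 9391 and 9962 at 0 h. In 1 fibroblast and 1 endoderm marker no read was found in any of the 4 libraries. The part of these markers in the results was not tested.

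Most genes with a large exon change also changed in their introns. Exons of 8867 of 13652 genes differed between 96 h and 0 h at an adjusted p below 0.05 (65.0%), with 4426 higher (32.4%) and 4441 lower (32.5%). At least 2-fold, 1178 were higher (8.63%) and 651 lower (4.77%). Introns differed for 5449 of 12225 genes (44.6%), with 2778 higher (22.7%) and 2671 lower (21.8%). At least 2-fold, 858 introns were higher (7.02%) and 383 lower (3.13%). The exon change minus the intron change, tested directly in the same libraries, differed from 0 for 2400 of 11939 genes (20.1%), with 1191 higher (9.98%) and 1209 lower (10.1%). At least 2-fold, 136 differences were higher (1.14%) and 128 lower (1.07%). Across those 11939 genes the exon and intron changes had a Pearson r of 0.78 and a Spearman rho of 0.70. This is a description, because both come from the same libraries and genes are not independent. Of 899 genes with exons at least 2-fold higher, 702 (78.1%) had introns called higher and 166 (18.5%) had a difference called higher. Of 443 with exons at least 2-fold lower, 290 (65.5%) had introns called lower and 96 (21.7%) a difference called lower. All tests were limma's on log2(normalised reads + 1), with Benjamini-Hochberg adjustment over all genes tested. The median standard error was 0.080 for exons, 0.146 for introns and 0.160 for the difference, so that a small departure was harder to detect in introns. The difference count is the least settled of the 3, at 1398 to 1559 genes when any 1 of the 4 libraries is left out and 1045 with a prior variance that does not follow expression.

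The calls sorted the 11939 genes into patterns, and the names used here stand for the calls alone. In 1718 genes exons and introns were both higher with no difference called, and in 1656 both were lower (the transcribed pattern). In 424 genes exons and the difference were higher and introns were not called, and in 485 exons and the difference were lower (the after-transcription pattern). All 3 measures were higher in 176 genes and lower in 126. Exons and introns moved in opposite directions in 174 genes with exons higher and 126 with exons lower (the opposed pattern). In 263 genes introns were higher and the difference lower with exons not called, and in 240 introns were lower and the difference higher (the offset pattern). In 176 genes introns rose more than exons and in 162 they fell more. In 1330 genes exons alone were called higher and in 1503 exons alone lower, and in 2778 genes nothing was called. With any 1 of the 4 libraries left out, each pattern listed next held fewer genes, and so did the transcribed pattern. After transcription held 282 to 318 higher and 283 to 350 lower, all 3 measures 73 to 91 higher and 40 to 61 lower, and opposed 100 to 114 with exons higher and 76 to 85 with exons lower. Offset held 133 to 220 with introns higher and 165 to 187 with introns lower, and introns moved further up in 74 to 99 and further down in 69 to 103. The median exon change in the after-transcription pattern was 0.54 (log2) where higher and -0.51 where lower, smaller in size than in the transcribed pattern with exons higher (0.72) and larger than in the one with exons lower (-0.46).

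**Figure D1:**
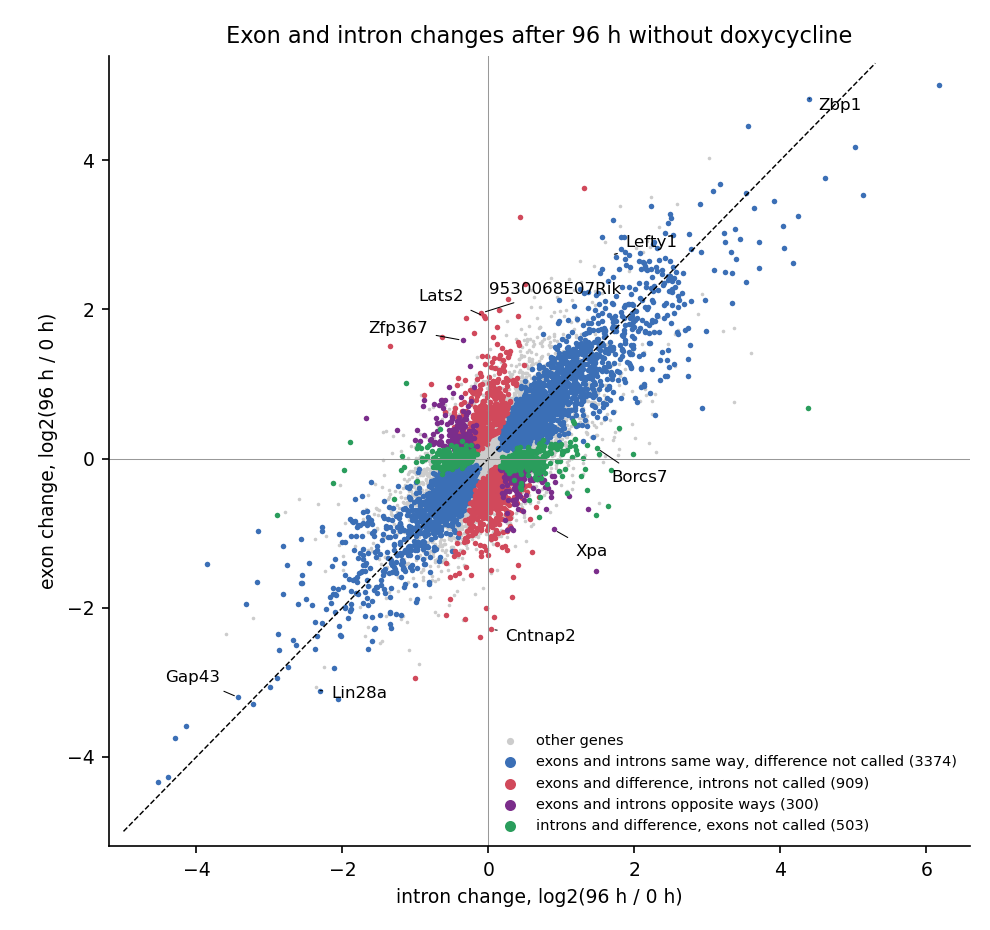
Each point is 1 of 11939 genes, with the intron change on the horizontal axis and the exon change on the vertical axis, both log2 of 96 h over 0 h. Blue points are the 3374 transcribed genes along the diagonal, red the 909 after-transcription genes near an intron change of 0, purple the 300 opposed genes and green the 503 offset genes. The dashed line marks equal changes.

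Exons rose with level introns in a set led by 9530068E07Rik, Lats2, Tbc1d8b and Gnb5, each by more than 1.7 on the log2 scale. 9530068E07Rik (chromosome 11, 52396428 to 52408728) had 16950 and 17963 exon reads at 96 h, against 4624 and 4401 at 0 h. Its introns had 452 and 479 reads at 96 h, against 477 and 519 at 0 h. The exon groups stood apart and the intron groups were close, with an exon minus intron change of 2.04 ± 0.11 (SE; adjusted p = 1.4e-09, limma, n = 2 each). Lats2, a kinase of the Hippo pathway and a target of the miR-302 family known from human cells, had 2718 and 2290 exon reads at 96 h, against 643 and 687 at 0 h. Lats2 introns had 141 and 149 reads at 96 h, against 146 and 156 at 0 h, and the difference was 1.96 ± 0.27 (adjusted p = 6.9e-05, limma). Its site printed above is 1 of 2 matches in its 3' UTR. Tbc1d8b, which has the domain of Rab GTPase-activating proteins, had 1693 and 1942 exon reads at 96 h, against 434 and 480 at 0 h, with 193 and 207 intron reads at 96 h, against 178 and 183 at 0 h. Gnb5, a G protein beta subunit, had 929 and 775 exon reads at 96 h, against 268 and 232 at 0 h, with 306 and 311 intron reads at 96 h, against 296 and 273 at 0 h. The differences of both were called, at 1.84 for Tbc1d8b and 1.64 for Gnb5.

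Rora, a nuclear receptor, Siae, a sialic acid acetylesterase, and Glb1l2 followed, with differences of 1.57, 1.42 and 1.32. Lcor, a nuclear receptor corepressor, had a difference of 1.39 ± 0.34, which was no longer called without the second 96 h library (adjusted p = 0.11, limma) or the second 0 h library (adjusted p = 0.068, limma). Of the 8 genes named by rule in this direction, 9530068E07Rik, Lats2, Tbc1d8b, Gnb5 and Rora held 1 or more matches to AGCACTT in the 3' UTR, and Siae, Lcor and Glb1l2 held none. Tbc1d8b, Gnb5, Rora, Siae and Glb1l2 overlap a gene on the other strand and Lats2 one on its own strand. Whether the counting used strand is not given in the sources used here, so that the intron values of these genes may hold reads of the other gene. Several genes described further on carry the same limit. Among them Rbl2, Psph, Dnmt3l, Dnmt3b, Pfkp, Irf2, Bhlhe40, Otx2 and Lin28a overlap a gene on the other strand. Tnrc6a and Tnrc6b overlap one on their own strand, and Rb1 and Arid4b overlap genes on both.

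Of the genes fixed as published targets of the ES-cell microRNAs, all 24 tested rose in exons, with a median of 0.98 (log2) against -0.01 over all genes. The list was drawn up with results of these data known and is no independent evidence of its direction. Its introns were called higher in 10 and lower in 3 of 22 members, with a median of 0.33, and its difference was higher in 14 and lower in 0 of 22, with a median of 0.59. The members therefore split between patterns. Lats2, Mbd2, Fndc3a and Kdm1b were among those with the after-transcription pattern, Cdkn1a, Rbl2, Lefty1, Lefty2, Arid4a and Ei24 rose in all 3 measures, and Casp2, Arid4b and Pfkp rose in exons while their introns fell. Irf2, Nr2f2, Vim and Cfl2 had the transcribed pattern. Left out in turn, some libraries changed these calls (limma). The Arid4b intron fall was lost without the first 0 h library or the second 96 h library (adjusted p = 0.099 and 0.085). For Pfkp the exon rise was lost without either 0 h library or the second 96 h library (adjusted p = 0.058, 0.10 and 0.61) and the intron fall without the first 96 h library (adjusted p = 0.25).

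Cdkn1a, the inhibitor p21 of cyclin-dependent kinases, had 9999 and 9833 exon reads at 96 h, against 1850 and 1857 at 0 h, with 366 and 432 intron reads at 96 h, against 220 and 219 at 0 h. Its exon change of 2.42 ± 0.05 was larger than its intron change of 0.85 ± 0.12 (difference 1.56 ± 0.14, adjusted p = 6.4e-07, limma). Rbl2, a member of the retinoblastoma family, had 4091 and 3974 exon reads at 96 h, against 1045 and 1210 at 0 h, and a difference of 1.58 ± 0.13. Its small intron rise of 0.26 ± 0.11 was no longer called without the second 0 h library (adjusted p = 0.39, limma), the first 96 h library (adjusted p = 0.20) or the second 96 h library (adjusted p = 0.088). Lefty1, an inhibitor of Nodal signalling, had 27694 and 27683 exon reads at 96 h, against 4234 and 4067 at 0 h, with 574 and 562 intron reads at 96 h, against 179 and 163 at 0 h. Lefty1 rose by 2.74 ± 0.04 in exons and by 1.73 ± 0.12 in introns, and the difference was called (adjusted p = 4.4e-05, limma). Lefty2, which is nearly identical in sequence, rose by 2.51 ± 0.05 in exons and 1.93 ± 0.18 in introns, and reads shared between the pair may have been split between them. The Lefty2 difference of 0.58 (adjusted p = 0.044, limma) was not called without the second 0 h library (adjusted p = 0.35), without the first 96 h library (adjusted p = 0.17) or without the second 96 h library (adjusted p = 0.14).

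In the opposed genes exons rose while introns fell. Zfp367, a zinc finger protein, had 5479 and 5200 exon reads at 96 h, against 1852 and 1710 at 0 h, and 691 and 724 intron reads at 96 h, against 933 and 869 at 0 h. Neither pair of groups overlapped, and the difference was 1.93 ± 0.10 (adjusted p = 1.4e-09, limma). Uchl1, a ubiquitin hydrolase, had 7625 and 7308 exon reads at 96 h, against 4370 and 4317 at 0 h, and 647 and 618 intron reads at 96 h, against 1110 and 1217 at 0 h. Its exons were 1.72-fold higher while its introns fell by 0.88 on the log2 scale (adjusted p = 2.4e-09, limma). Polq, DNA polymerase theta, had 3030 and 2911 exon reads at 96 h, against 1827 and 1815 at 0 h, and 368 and 320 intron reads at 96 h, against 606 and 673 at 0 h. Arnt2, a basic helix-loop-helix PAS factor, rose by 0.39 ± 0.07 in exons and fell by 1.25 in introns. Casp2, an initiator caspase, had 3912 and 4043 exon reads at 96 h, against 2293 and 2466 at 0 h, with 476 and 474 intron reads at 96 h, against 758 and 720 at 0 h. Zfp367 and Uchl1 each held 2 matches to AGCACTT, and Polq and Arnt2 held 1. Uchl1 and Arnt2 overlap a gene on the other strand.

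**Figure D2:**
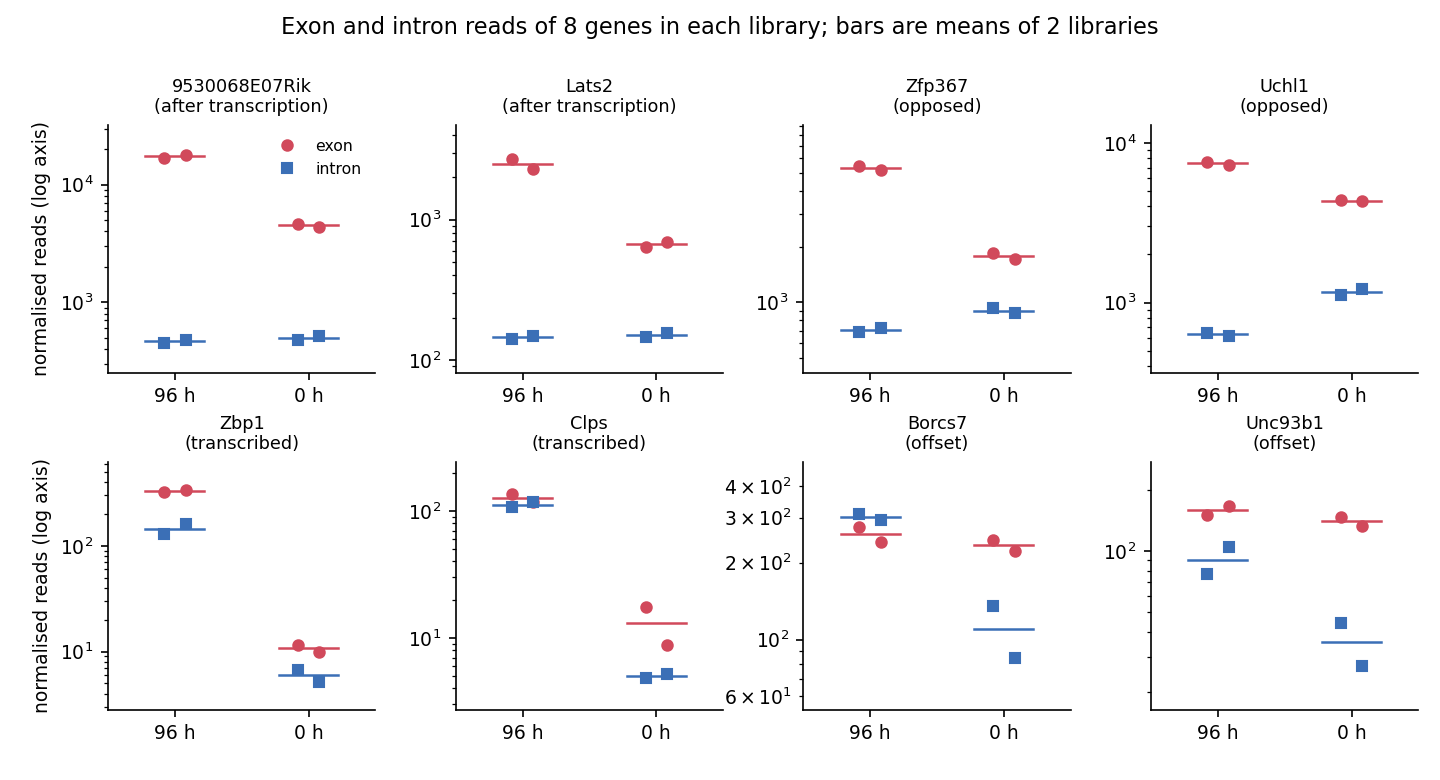
Normalised exon reads (red circles) and intron reads (blue squares) of 8 genes in each library, on log axes, with the 2 libraries at 96 h left of the 2 at 0 h and bars at the means. Exons stand higher at 96 h with level introns in 9530068E07Rik and Lats2, introns are lower at 96 h in Zfp367 and Uchl1, both are higher in Zbp1 and Clps, and introns alone are higher in Borcs7 and Unc93b1.

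Genes that rose in both exons and introns reached the largest changes. Zbp1, a sensor of Z-form nucleic acids, had 323 and 337 exon reads at 96 h, against 11.6 and 9.85 at 0 h, and 130 and 161 intron reads at 96 h, against 6.73 and 5.19 at 0 h. Its exon change of 4.82 ± 0.29 and intron change of 4.39 ± 0.41 differed by 0.43 ± 0.42 (adjusted p = 0.53, limma). Its groups stood apart in exons and in introns. Other genes named by rule in this pattern were Clps, the pancreatic colipase, Pitpnm3, Copz2, a coatomer subunit, Vax2, a homeobox gene, Chit1, a chitinase, and Dmgdh, a mitochondrial dehydrogenase, with intron changes between 3.38 and 4.24 and exon changes between 2.55 and 4.45. Chit1 had 320 and 479 exon reads at 96 h, against 17.4 and 16.4 at 0 h. Where reads were this few at 0 h, log2(reads + 1) understates a fold.

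Exons fell with level introns in a second set. Cntnap2, a cell adhesion protein of the neurexin family, had 25.3 and 23.2 exon reads at 96 h, against 128 and 117 at 0 h, and 216 and 313 intron reads at 96 h, against 265 and 244 at 0 h. Its intron groups overlapped, and its difference was -2.33 ± 0.22 (adjusted p = 1.6e-06, limma). Sycp3, a protein of the meiotic synaptonemal complex, had 38.9 and 82.6 exon reads at 96 h, against 222 and 237 at 0 h, and a difference of -1.97 ± 0.35. Pstk, a kinase of selenocysteine synthesis, had 345 and 344 exon reads at 96 h, against 1017 and 940 at 0 h, with 548 and 552 intron reads at 96 h, against 553 and 523 at 0 h. Tprkb, a subunit of the complex that makes the t6A modification of transfer RNA, had 692 and 847 exon reads at 96 h, against 1685 and 1713 at 0 h, with 302 and 307 intron reads at 96 h, against 254 and 308 at 0 h. Hdgfrp3, Svbp, a partner of the vasohibins, Ccdc124 and Itgb1bp1, a binder of integrin beta 1, had differences between -1.40 and -1.22. Sycp3, Pstk, Hdgfrp3, Tprkb and Itgb1bp1 overlap a gene on the other strand. The 485 genes of this pattern had a median 3' UTR of 846 bases, against 2173 bases in the 424 genes with exons higher and 1166 over all 11939 genes. Other lengths went the same way. In the same order the median exon length was 1922, 4509.5 and 3018 bases, and the median intron length 13204, 38275.5 and 20683 bases.

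Both exons and introns fell in Lin28a, the RNA-binding protein that blocks let-7 maturation, which was among the most abundant mRNAs of these cells at 0 h. It had 3541 and 3676 exon reads at 96 h, against 31348 and 31030.2 at 0 h, and 24.1 and 28.1 intron reads at 96 h, against 124 and 142 at 0 h. Its exon change was -3.11 ± 0.04 and its intron change -2.31 ± 0.29, and the difference of -0.81 ± 0.31 was not called (adjusted p = 0.075, limma). Gap43, a growth cone protein, had 96.2 and 102 exon reads at 96 h, against 922 and 916 at 0 h, and 10.47 and 18.06 intron reads at 96 h, against 183 and 137 at 0 h. Spink1, a trypsin inhibitor, had 7.77 and 4.03 exon reads at 96 h, against 128 and 139 at 0 h, and Hfm1, a meiotic DNA helicase, had 11.7 and 5.03 at 96 h, against 108 and 126 at 0 h. B3gnt5, a glycosyltransferase, Jph1, a junctophilin, Kdelr3, a receptor for retention in the endoplasmic reticulum, and Zfp618 fell by 2.23 to 3.00 on the log2 scale in introns. Of the other abundant mRNAs that fell most, Fblim1, a filamin binder, and Peg10, a retrotransposon-derived imprinted gene, followed their introns. Dnmt3l, the cofactor of de novo DNA methylation, and Odc1, ornithine decarboxylase, fell further in exons than in introns. Dnmt3l had 6676 and 6152 exon reads at 96 h, against 20316 and 18658 at 0 h, and its introns fell to 536 and 495 reads at 96 h, against 1052 and 1054 at 0 h. The Dnmt3l difference of -0.58 ± 0.11 had an adjusted p of 0.051 with a constant prior (limma). Odc1 had 16672 and 15454 exon reads at 96 h, against 41961 and 41869.6 at 0 h, and a difference of -0.66 ± 0.12.

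Opposed genes with exons lower had modest exon changes. Xpa, a factor of nucleotide excision repair, had 85.5 and 82.6 exon reads at 96 h, against 149 and 179 at 0 h, and 209 and 206 intron reads at 96 h, against 111 and 112 at 0 h. Cox20, an assembly factor of cytochrome c oxidase, had 198 and 219 exon reads at 96 h, against 348 and 318 at 0 h, and 346 and 306 intron reads at 96 h, against 182 and 194 at 0 h. Ccdc167 and Stra13 completed the set named by rule, with differences of -1.60 and -1.37. Xpa, Ccdc167 and Cox20 overlap a gene on the other strand. In the offset pattern introns moved while exons were not called to differ. Zfp341, Pea15a, Mttp, Kbtbd8 and Tcp11l1 of this pattern overlap a gene on the other strand, so their intron values may hold its reads. Borcs7, a subunit of the lysosome positioning complex BORC, had 310 and 294.1 intron reads at 96 h, against 136 and 85.1 at 0 h, and 276 and 241 exon reads at 96 h, against 245 and 223 at 0 h. Zfp341, a zinc finger protein, had 70.2 and 64.2 intron reads at 96 h, against 129 and 137 at 0 h, and 790 and 759 exon reads at 96 h, against 697 and 705 at 0 h. The differences of the other offset genes named by rule, Unc93b1, Pea15a, Rpl39l, Mttp, Kbtbd8 and Tcp11l1, were less settled when 1 library was left out (limma). Mttp was lost without the first 0 h library (adjusted p = 0.061) and Pea15a without the second (adjusted p = 0.10). Unc93b1 was lost without the second 0 h library (adjusted p = 0.14) or the second 96 h library (adjusted p = 0.11), and so was Rpl39l (adjusted p = 0.29 and 0.21). Tcp11l1 was lost without the first or second 0 h library or the second 96 h library (adjusted p between 0.064 and 0.089), and Kbtbd8 with each of the 4 left out in turn (adjusted p between 0.063 and 0.24).

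The factors of silencing and decay were mixed. The counts of each list are to be read beside the shares over all genes, 32.4% higher and 32.5% lower in exons, 22.7% and 21.8% in introns, and 9.98% and 10.1% in the difference. Of 19 tested genes of the microRNA silencing machinery, 4 rose and 4 fell in exons, and the difference was higher in 6 and lower in 3. The 4 that fell include Ago2 and Ago3, labelled null in this line, whose whole-gene counts are limited as stated above. Ago2 is also 1 of the 3 lower in the difference. With 1 library left out the lower calls numbered 0 without the first 0 h library or the second 96 h library, 1 without the first 96 h library and 2 without the second 0 h library. Tnrc6b, a scaffold that links Argonaute to deadenylases, had 14031 and 14679 exon reads at 96 h, against 8177 and 8451 at 0 h, with 253 and 315 intron reads at 96 h, against 340 and 296 at 0 h. Tnrc6a, its paralogue, rose by 0.57 ± 0.04 in exons with a difference of 0.49 ± 0.08 (adjusted p = 0.00044, and 0.051 with a constant prior, limma). Mov10, an RNA helicase found with Argonaute, rose by 1.27 ± 0.04 in exons and 1.18 ± 0.08 in introns. Of 41 genes of deadenylation and decay, 5 rose and 19 fell in exons, 3 rose and 14 fell in introns, and the difference was higher in 4 and lower in 7, or higher in 2 without either 0 h library or the second 96 h library. Cnot6, a catalytic deadenylase of CCR4-NOT, had 17044 and 17009 exon reads at 96 h, against 10210.1 and 9547 at 0 h, while its introns had 1156 and 1221 reads at 96 h, against 1834 and 1899 at 0 h. Its paralogue Cnot6l had 4862 and 5223 exon reads at 96 h, against 2659 and 2345 at 0 h, with an intron change of 0.02 ± 0.14. Pabpc1, the main cytoplasmic poly(A)-binding protein, fell by 0.54 in exons and 0.40 in introns on the log2 scale.

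Of 32 RNA-binding regulators of mRNA stability, 12 rose and 10 fell in exons, close to the shares over all genes, and the difference was higher in 6 and lower in 0 of 30. Those higher include Elavl2, with 4937 and 5306 exon reads at 96 h, against 2915 and 2730 at 0 h, and a difference of 0.77 ± 0.11. Btg2, an antiproliferative protein that recruits deadenylases, had 5880 and 5935 exon reads at 96 h, against 1651 and 1744 at 0 h, with too few intron reads to test. Of 25 splicing factors, 2 rose and 14 fell in exons, and the difference was higher in 5 and lower in 6 of 24. With any 1 library left out it was higher in 1 to 3 and lower in 3 to 4, the fewest higher without the first 0 h library and the fewest lower without the second. Srsf5, an SR protein, had 17896 and 19059 exon reads at 96 h, against 21883 and 21792 at 0 h, while its introns rose to 11712 and 11339.5 reads at 96 h, against 9767 and 9515 at 0 h. Of 22 immediate early genes, whose mRNAs are short-lived, 15 rose and 5 fell in exons (median 0.86). The 11 with introns to test had a median difference of -0.28, with 2 called higher and 1 lower. The lower call was lost with any 1 library left out, and 1 of those called higher without the first 0 h or the first 96 h library. Egr1, a zinc finger factor, rose by 0.89 ± 0.06 in exons and 1.71 ± 0.33 in introns.

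Cytosolic ribosomal protein genes moved together. In exons 1 rose and 68 fell of 76, with a median of -0.34, and in introns 1 rose and 64 fell of 75, with a median of -0.48. The difference was called higher in 8 and lower in 2 of 75 (lower in 1 without the second 0 h or the second 96 h library), and 55 members had the transcribed pattern. Rps2, of the small subunit, had 82021 and 79386 exon reads at 96 h, against 116686 and 123556 at 0 h, and 675 and 596 intron reads at 96 h, against 1108 and 1141 at 0 h. Rpl7, of the large subunit, had 37585 and 42240 exon reads at 96 h, against 56986 and 61864 at 0 h. Rpl10l, a testis paralogue, was the member that rose. Many of these genes have processed pseudogenes, and how reads shared with them were counted is not given in the sources used here.

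Genes activated by Atf4, the factor of the amino acid response, also fell in both measures. Of 25 tested in exons 2 rose and 21 fell (1 rose without the second 96 h library), with a median of -0.79, and of 22 tested in introns 0 rose and 16 fell, with a median of -0.61. The difference was called higher in 3 and lower in 6 of 22, with a median of 0.07. Fewer were called in either direction with any 1 library left out. Phgdh, the first enzyme of serine synthesis, had 2612 and 2818 exon reads at 96 h, against 6946 and 6561 at 0 h, and 139 and 195 intron reads at 96 h, against 513 and 450 at 0 h. Psph, the last enzyme of the same pathway, had 1333 and 1265 exon reads at 96 h, against 2618 and 2658 at 0 h, with 215 and 220 intron reads at 96 h, against 231 and 280 at 0 h, and a difference of -0.80 ± 0.15 (adjusted p = 0.0011, limma). Atf4 itself had 16220 and 16865 exon reads at 96 h, against 25357 and 26234 at 0 h, and its intron change was 0.13 ± 0.18. Its difference of -0.78 ± 0.20 was not called without the second 0 h library (adjusted p = 0.086, limma) or the first 96 h library (adjusted p = 0.15), nor with a constant prior (adjusted p = 0.052).

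Interferon and nucleic acid sensor genes rose in exons in 22 of 28 members and fell in 3, with a median of 0.79. In introns 12 of 24 rose, 4 fell and the others were not called, with a median of 0.61, and without the second 0 h library 14 rose and 1 fell. The difference was called higher in 1 and lower in 0 of 24, with a median of 0.00, and the call was lost without the second 0 h library. Tmem173, which encodes the adaptor STING, had 617 and 632 exon reads at 96 h, against 150 and 165 at 0 h, and 51.3 and 65.2 intron reads at 96 h, against 8.66 and 20.7 at 0 h. Irf2, an interferon regulatory factor that the list shares with the ES-cell microRNA targets, had 316 and 360 exon reads at 96 h, against 13.5 and 6.56 at 0 h. Its introns had 59.7 and 85.3 reads at 96 h and were at 0 in both 0 h libraries. Bst2, the membrane protein tetherin, fell to 439 and 430 exon reads at 96 h, against 1064 and 1018 at 0 h.

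Smad2/3 targets, the outputs of Nodal signalling, rose in exons in 16 of 25 and fell in 2, with a median of 0.54, and rose in introns in 11 of 19 and fell in 0, with a median of 0.50. The median difference over the 19 tested in both was -0.25, with 4 called higher and 4 lower. Without the second 0 h library 1 was higher and 1 lower, without the first 96 h library 3 and 1, and without the second 96 h library 1 and 3. Bhlhe40, a transcriptional repressor, had 3413 and 5114 exon reads at 96 h, against 700 and 735 at 0 h, with introns 2.23 ± 0.35 higher on the log2 scale. Of the components of the Tgf-beta and Nodal pathways, 17 of 30 rose and 4 fell in exons, 7 of 28 rose and 6 fell in introns, and the difference was higher in 4 and lower in 0. Without the second 0 h library the difference was higher in 1, and without the first 96 h library in 2. In introns 4 rose without either of these libraries, and 3 fell with any 1 of the 4 left out. In exons 2 fell without the first 96 h library. Inhbb, a subunit of activin, had 10714 and 10493 exon reads at 96 h, against 4051 and 4294 at 0 h. Smad3, a signal transducer, rose by 0.84 ± 0.06 in exons and 0.84 ± 0.16 in introns, and Bmp4, a ligand of another branch, fell to 329 and 342 exon reads at 96 h, against 1131 and 1121 at 0 h.

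Of 27 regulators of the G1/S transition 14 rose and 8 fell in exons, and the difference was higher in 8 and lower in 3 of 26 (lower in 1 without the second 0 h library). Beside Cdkn1a and Rbl2, Rb1, the retinoblastoma protein, had 1125 and 1182 exon reads at 96 h, against 674 and 683 at 0 h, with 206 and 258 intron reads at 96 h, against 220 and 262 at 0 h. Rb1 overlaps genes on both strands, so its intron values may hold their reads. Of 19 let-7 targets 6 rose and 5 fell in exons, with a median of -0.01, no more than the shares over all genes. The difference was higher in 1 and lower in 2 of 18, and with any 1 library left out it was higher in 0 or 1 and lower in 0 or 1. Of 25 naive and core pluripotency genes 8 rose and 15 fell in exons, and the difference was higher in 2 and lower in 5 of 23 (higher in 0 without the first 0 h library and in 1 with any other library left out). Nanog, a core factor, had 67642 and 67497 exon reads at 96 h, against 46587 and 46475 at 0 h, and its introns had 3511 and 3288 reads at 96 h, against 1694 and 1440 at 0 h. The Nanog intron change of 1.12 ± 0.07 exceeded its exon change of 0.54 ± 0.04. Klf2, a naive-state factor, rose by 1.23 ± 0.04 in exons and 1.08 ± 0.12 in introns. Among 12 tested genes of the formative and primed states, 3 were higher and 7 lower in exons, and of these Otx2, a homeobox gene, rose by 0.86 ± 0.06 in exons and by 2.28 ± 0.20 in introns. Of 12 DNA methylation enzymes and readers 5 rose and 6 fell in exons, and the difference was higher in 5 and lower in 2. It was higher in 1 without the second 0 h library or the second 96 h library, and lower in 1 without the first 0 h library or the first 96 h library. Mbd2, which binds methylated DNA, had 2141 and 1996 exon reads at 96 h, against 967 and 1049 at 0 h, with a difference of 0.92 ± 0.12, and Dnmt3b, a de novo methyltransferase, had 4593 and 4402 exon reads at 96 h, against 10695 and 10337 at 0 h, with 590 and 546 intron reads at 96 h, against 1134 and 1138 at 0 h.

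**Figure D3:**
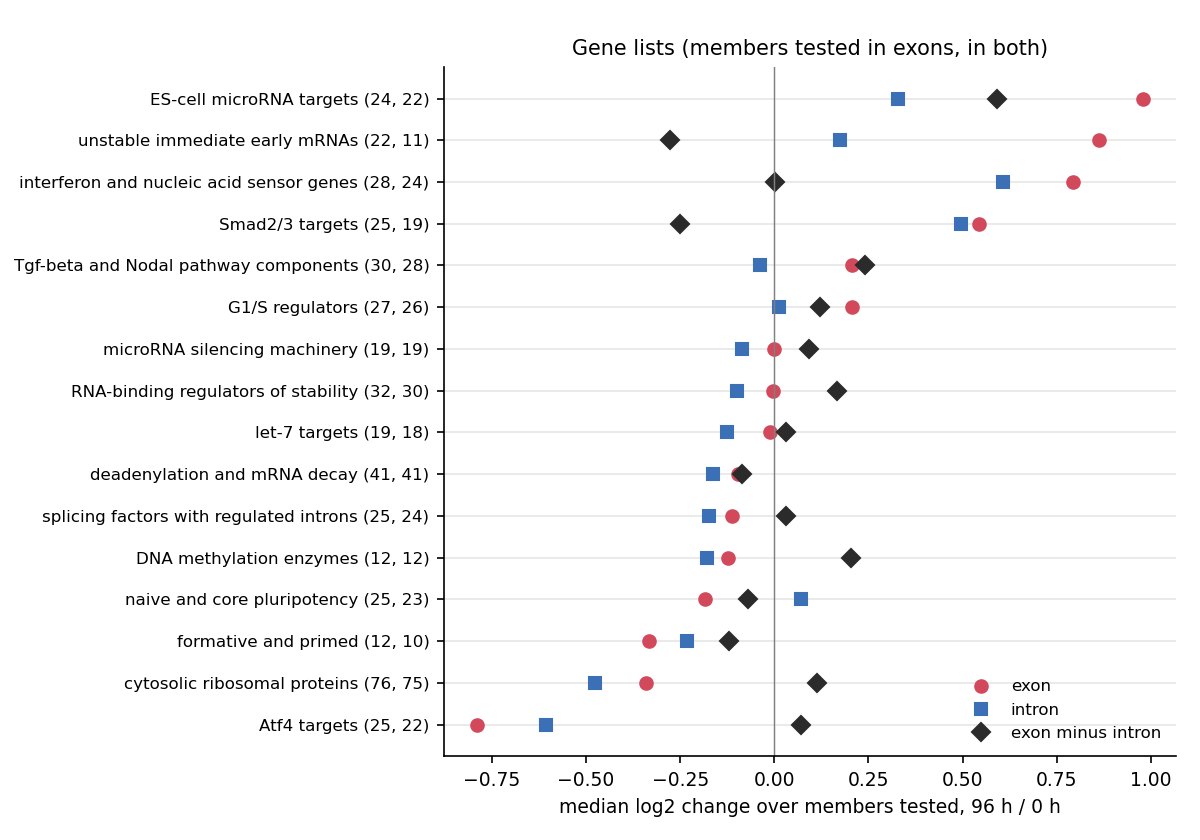
Median log2 change of 96 h over 0 h for 16 gene lists, in exons (red circles), introns (blue squares) and exon minus intron (black diamonds), with the number of members tested in exons and in both in brackets. The ES-cell microRNA targets have the highest exon median of these lists (0.98) and the highest difference median (0.59), and the ribosomal protein and Atf4 lists have exon and intron medians below 0.

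The seed printed above was matched in 2090 of 11858 tested genes with a 3' UTR (17.6%). The median difference was -0.04 in the 9768 genes with 0 matches, 0.12 in the 1689 with 1, 0.21 in the 309 with 2 and 0.28 in the 92 with 3 or more. The median intron change in the same groups was 0.00, -0.01, -0.04 and -0.07. The share called higher in the difference was 7.32%, 21.6%, 25.2% and 32.6%, and the share called lower was 11.1%, 5.74%, 5.18% and 2.17%. Genes with a match had a median difference 0.177 higher than genes without, and the 4 pairings of a 96 h with a 0 h library gave an SD of 0.011. The 3' UTR was longer where there were more matches, with a median of 966 bases at 0 matches and 5404 at 3 or more. In genes split into 3 groups of equal size by 3' UTR length, short, middle and long, the gap was 0.157, 0.141 and 0.143.

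By pattern, the match was found in 47.8% of after-transcription genes with exons higher, 48.3% of opposed genes with exons higher and 43.1% of genes higher in all 3 measures. It was found in 17.9% of transcribed genes with exons higher, 9.13% of after-transcription genes with exons lower and 29.3% of offset genes with introns lower. The share over all tested genes was 17.6%. Every other seed counted was also matched more often in after-transcription genes with exons higher than in all tested genes. For miR-17-5p the shares were 41.6% and 14.5%, for miR-148a-3p 28.6% and 15.5%, and for miR-16-5p 36.2% and 24.8%. They were 19.9% and 13.9% for miR-9-5p, and 19.6% and 11.4% for miR-206-3p. The median 3' UTR was 2173 bases in these genes and 1165.5 in all, and the shares were not split by length. For miR-17-5p the gap was 0.175 (SD 0.007), and 969 genes had matches to both seeds. The gap was 0.117 for miR-92a-3p, 0.084 for miR-148a-3p, 0.073 for miR-26a-5p, 0.051 for miR-206-3p, 0.043 for miR-16-5p and 0.031 for let-7a-5p. For miR-9-5p it was 0.054, with -0.015, -0.010 and 0.041 in the short, middle and long 3' UTRs. In the same order it was 0.039, 0.027 and 0.027 for miR-206-3p, a microRNA of muscle, and 0.100, 0.077 and 0.066 for miR-92a-3p. The gap was 0.062, 0.006 and 0.062 for miR-148a-3p and 0.014, 0.032 and 0.050 for miR-26a-5p. For miR-16-5p it was -0.034, 0.023 and -0.006, and for let-7a-5p -0.014, -0.0003 and -0.006. These values describe the genes and carry no test.

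**Figure D4:**
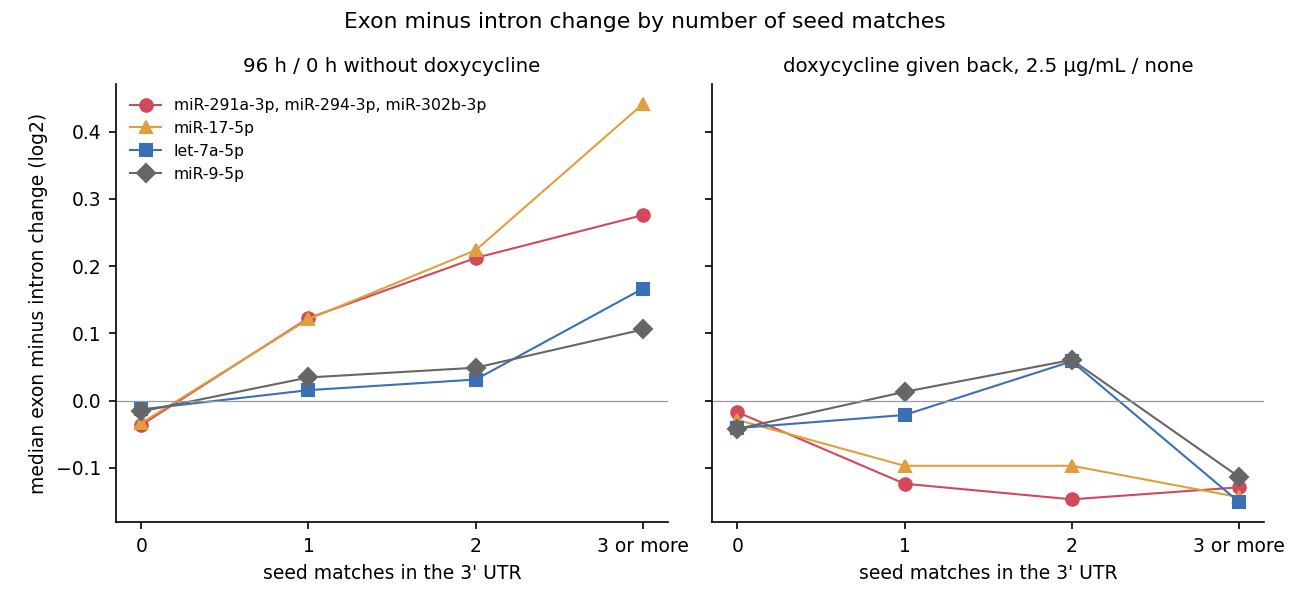
Median exon minus intron change (log2, vertical axis) of genes with 0, 1, 2 and 3 or more seed matches in the 3' UTR, for 96 h over 0 h without doxycycline on the left and for 2.5 µg/mL over none on the right. At 96 h the medians for the miR-291a, miR-294 and miR-302b seed run from -0.04 at 0 matches to 0.28 at 3 or more, and those for miR-9-5p end at 0.11. When doxycycline was given back the first of these lines lies at or below -0.12 from 1 match on, and that for miR-9-5p ends at -0.11.

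The rescue libraries, which share no sample with the 96 h comparison, were measured alike after doxycycline was given back. Ago2 had 6093 and 5284 exon reads at 2.5 µg/mL, against 7260 and 7300 without the drug, lower by limma (log2 change -0.36, adjusted p = 1.8e-06), so that the whole-gene count does not show the labelled return of Ago2. At 2.5 µg/mL 4189 of 13176 genes had exons called higher than without the drug (31.8%) and 4211 lower (32.0%). Of the 4368 genes higher at 96 h that were tested in both, 3230 (73.9%) were lower at 2.5 µg/mL and 102 higher. Those 3230 are 76.8% of the genes that were lower at 2.5 µg/mL. Of the 4366 genes lower at 96 h, 3198 (73.2%) were higher at 2.5 µg/mL and 154 lower, which is 76.4% of the genes higher at 2.5 µg/mL. Of 1121 genes at least 2-fold higher at 96 h, 965 (86.1%) were lower at 2.5 µg/mL and 0 higher by limma.

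The difference was called higher at 2.5 µg/mL in 12.5% and lower in 13.4% of genes. In after-transcription genes with exons higher at 96 h it was lower at 2.5 µg/mL in 176 of 418 (42.1%) and higher in 22. In opposed genes with exons higher it was lower in 84 of 173 (48.6%), and in transcribed genes with exons higher it was lower in 202 of 1657 (12.2%) and higher in 148. In after-transcription genes with exons lower at 96 h it was higher in 169 of 479 (35.3%) and lower in 22. In offset genes with introns higher at 96 h it was higher in 83 of 258 (32.2%). Introns were called lower at 2.5 µg/mL in 22.1% of all genes and in 52.9% of the transcribed genes with exons higher at 96 h. They were also called lower in 35.4% of the after-transcription genes with exons higher and in 73.9% of those higher in all 3 measures. In the opposed genes with exons higher they were called lower in 24.3% and higher in 26.6%. By seed matches, the median difference at 2.5 µg/mL over none was -0.02 at 0 matches, -0.12 at 1, -0.15 at 2 and -0.13 at 3 or more. For miR-9-5p it was -0.04, 0.01, 0.06 and, in the 38 genes with 3 or more, -0.11, close to the value for the first seed. With 1 or more matches to miR-17-5p it was -0.10, against -0.03 without. For miR-92a-3p it was 0.03 against -0.04, for miR-16-5p 0.0045 against -0.05, and for miR-148a-3p -0.02 against -0.04. It was -0.007 against -0.04 for miR-26a-5p, -0.001 against -0.04 for miR-206-3p and -0.01 against -0.04 for let-7a-5p. From miR-92a-3p on, genes with a match lay higher than those without, as at 96 h.

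9530068E07Rik had 2938 and 3166 exon reads at 2.5 µg/mL, against 12650 and 12967 without the drug, with a difference of -2.09 ± 0.16 (adjusted p = 1.0e-08, limma). Zfp367 had 1368 and 1291 exon reads at 2.5 µg/mL, against 5053 and 5029 without, and 511 and 508 intron reads at 2.5 µg/mL, against 502 and 491 without, so that its intron groups were close in this set. Uchl1 had 2448 and 2343 exon reads at 2.5 µg/mL, against 4096 and 4013 without, while its introns had 643 and 716 reads at 2.5 µg/mL, against 267 and 291 without. Lats2 had 585 and 501 exon reads at 2.5 µg/mL, against 2231 and 2139 without, and a difference of -1.12 ± 0.30. That difference is smaller in size than the log2 exon change in these reads, so that Lats2 introns lay lower at 2.5 µg/mL too. Lin28a had 24239 and 25876 exon reads at 2.5 µg/mL, against 2297 and 2563 without. The exons of these genes lay lower at 2.5 µg/mL than without the drug, except those of Lin28a, which lay higher, and the introns of Uchl1 lay higher as well. Xpa had 103 and 87.8 exon reads at 2.5 µg/mL, against 104 and 89.5 without, and its change was not called.

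**Figure D5:**
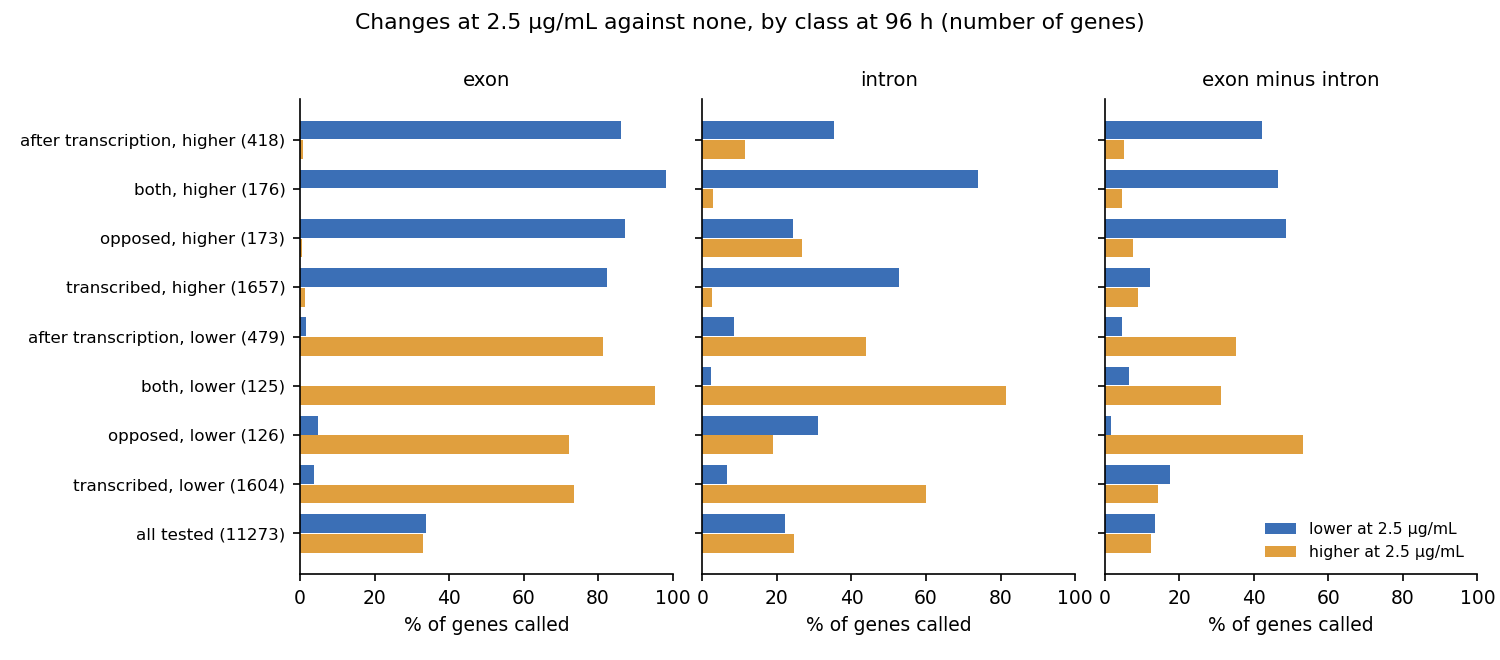
Share of genes called lower (blue) and higher (orange) at 2.5 µg/mL than without doxycycline, by their pattern at 96 h, in exons, introns and exon minus intron, with the number of genes in brackets. In the right panel the after-transcription and opposed genes with exons higher at 96 h are called lower in 42.1% and 48.6%, against 13.4% of all genes tested.

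The 24 h and 48 h groups, which share the 0 h libraries, place the 96 h values in order. The mean exon reads of 9530068E07Rik were 4512 at 0 h, 8930 at 24 h, 13906 at 48 h and 17456 at 96 h. Those of Zfp367 were 1781, 2110, 3451 and 5339 at the same times, and its introns had 901, 680, 687 and 707 reads. Exons of Lats2 had 665, 521, 1072 and 2504 reads, below the 0 h level at 24 h, and its introns had 151, 80.6, 89.2 and 145. Uchl1 exons had 4344, 5793, 7549 and 7467 reads, close at 48 h and 96 h, while its introns had 1163, 1109, 861 and 633, lower at each later time. Zbp1 exons had 10.7, 46.3, 62.3 and 330 reads, highest at 96 h. Gap43 exons had 919, 1642, 1182 and 98.9 reads, above the 0 h level at 24 h and 48 h and far below it at 96 h. Lin28a exons had 31189, 22984, 12648 and 3609 reads, lower at each later time.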

How the data were processed

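The deposited tables give, for exons and for introns of 18412 genes, each group's mean signal, that is read counts divided by library size factors and averaged over 2 libraries by the authors, per the file headers. DESeq, TopHat2 2.0.12 and mm10 are named, per the submitters' processing notes; how the counting used strand is not given in the sources used here. Whole library reads were recovered from the means: in all columns each value was solved by 1 pair of whole numbers (relative tolerance 1e-13). Libraries are numbered by depth within a group, and which deposited sample each is remains unknown. The numbering of exon and intron libraries was matched by the correlation of their deviations. This correlation was weak (r between 0.067 and 0.131 for 3 groups, -0.162 in the uncrossed order at 96 h). The matching touches the standard error of the difference. Through the centring described below it also shifts the value slightly (for Lefty2, 0.573 with the other matching, against 0.579).

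Log2(normalised reads + 1) was fitted with limma 3.58.1 in R 4.3.3 (trended empirical Bayes, all 4 times in 1 fit, Benjamini-Hochberg adjustment, mean of at least 10 reads). The difference is log2 exon minus log2 intron per library, centred on the library's median. The scripts (Python 3.11.15, pandas 2.3.3, numpy 2.4.6) were tested on simulated data. Count models were not used, because reads are recovered values. Symbols matched GENCODE M21 for 18329 genes. Genes were named by rule: at least 100 exon reads in the higher group and a mean of 50 intron reads, the 8 largest changes per direction for the after-transcription and transcribed patterns, 4 for the opposed and offset patterns, 5 among mRNAs over 10000 reads, and up to 4 per list, test and direction. Some genes that the rule or the lists include are not reported here. The members and lists were chosen with earlier results of these data known. Nothing says that the 2 libraries of a group came from separate cultures, so p-values measure the spread between libraries, which may be technical. Alternatives covered pseudocount, filter, scaling, prior, library matching and leaving out each library.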

Additional observations from a re-analysis of the deposited data

How the results depend on the processing

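Of the genes called in exons, introns or the difference, none changed sign under the alternatives fitted to all genes, except 1 exon change without the first 96 h library and 2 without the second, which were then not called. The balance of the counts did turn: with libraries scaled to equal totals exons were higher in 4730 and lower in 4125, and the difference was higher in 725 and lower in 673 without the second 0 h library, and higher in 784 and lower in 701 without the first 96 h library. Leaving out 1 library in turn gave 7955 to 8338 genes called in exons (higher 4012 to 4164, lower 3943 to 4174), 4301 to 4404 in introns (higher 2209 to 2328, lower 2034 to 2113), and 1398 to 1559 in the difference (higher 725 to 784, lower 673 to 801). A constant prior gave 1045 in the difference (543 higher, 502 lower). Without 1 library the patterns with exons or introns higher held 1490 to 1563 genes (transcribed), 282 to 318 (after transcription), 73 to 91 (all 3 measures), 74 to 99 (introns moved further), 100 to 114 (opposed) and 133 to 220 (offset); those lower held, in the same order, 1319 to 1398, 283 to 350, 40 to 61, 69 to 103, 76 to 85 and 165 to 187. At an adjusted p below 0.01 the after-transcription pattern held 275 higher and 296 lower, all 3 measures 76 and 38, introns moved further 70 and 69, opposed 87 and 61, and offset with introns higher 142. With changes of at least 1.5-fold only, transcribed held 1005 higher and 493 lower, after transcription 195 and 179, all 3 measures 42 and 22, introns moved further 30 and 10, opposed 8 and 4, and offset 143 and 97. The gap between genes with and without the miR-291a, miR-294 and miR-302b seed match was 0.2212 for sites of bases 2 to 7 followed by A. It was 0.1565, 0.1411 and 0.1427 in short, middle and long 3' UTRs. For miR-17-5p it was 0.1232 for such sites and 0.1781, 0.1296 and 0.1415 in short, middle and long 3' UTRs. The 3 groups by 3' UTR length were chosen after seeing the data. Of 485 called values of named genes, 56 to 66 were lost when 1 library was left out, and of 124 called differences 59 were lost with a constant prior and 27 with the other matching of libraries; the cause was not tested. No paired analysis was possible because the columns hold group means and carry no replicate number. Intron reads were far fewer than exon reads, which limits the difference.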
